A study of Cicer arietinum with 32 samples.

Results

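The shoot was compared with the root of chickpea (Cicer arietinum) seedlings of the genotype ICC4958, a drought-tolerant line. Both organs were collected at 15 days from seedlings raised in a culture room, and no treatment was applied to either. RNA-seq expression was deposited as 1 FPKM value per transcript and organ, fragments scaled to transcript length and to the number of mapped fragments, for 38818 transcripts of an assembly made by the study. Transcripts with at least 0.5 FPKM in shoot or root were compared, which left 24572 of 38818. The higher of the 2 organs lay between 0.5 and 0.6 FPKM for 487 of these, and a further 566 transcripts lay just outside, between 0.4 and 0.5 FPKM. Shoot and root are 2 of 32 tissues/organs in the atlas. Young leaf, mature leaf and bracteole, a small leaf below the flower, were used beside the shoot, and root tip and root hair beside the root. The methods state that root hairs came from seedlings kept in the dark, and bracteoles from mature plants. The labels give 21 days for root tip and 5 days for root hair, and the methods give other ages.

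A seedling shoot is built of stem and leaves, in which plastids develop into green chloroplasts. Chloroplasts capture light with chlorophyll-binding antenna proteins, pass electrons through the photosystems and fix carbon with rubisco. A root takes up water and mineral nutrients, is heterotrophic for carbon and strengthens its walls with lignin and suberin, which need phenylpropanoids and class III peroxidases. In bulk organs, more cells of a type and more RNA per cell cannot be told apart.

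The methods state 3 biological replicates per organ and that their values were averaged. The spread between replicates is therefore not in the values, and no test, error or p-value could be given for a difference between shoot and root. The number of fragments behind a value is not in the files either. A difference was expressed as log2(FPKM + 1) in shoot minus that in root, and a transcript was called higher in 1 organ at a difference of 2 or more, 4-fold on the FPKM + 1 scale. This is a rule of size only, and the added 1 FPKM understates the difference of transcripts with low values.

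Both files were examined before the comparison. The title of the shoot sample names the shoot, whereas its tissue label reads root. Transcripts of the light-harvesting antenna, nuclear photosystem and nuclear carbon fixation lists, 90 in all, summed to 3228 FPKM in the sample titled shoot, against 122 FPKM in root. The sums were 4466 FPKM in young leaf and 3665 FPKM in mature leaf, and 48.8 FPKM in root tip and 14.7 FPKM in root hair. Nodule had the highest sum of all, 37312 FPKM, so the sum alone does not mark green tissue. At least 0.5 FPKM was reached by 34 of the 90 in the sample titled shoot, against 13 in root, and by 39 in young leaf, 37 in mature leaf, 16 in nodule, 12 in root tip and 5 in root hair. The sample was used as shoot, as titled. The root values differed from the others in their decimals. All root values above 0 were whole multiples of 0.01, whereas 66.6% of the shoot values had 3 decimals, the last of them 3 or 7, as averages of 3 values given to 0.01 do. The decimals of 29 of the tissues/organs, shoot included, had this form. The root values may thus be those of 1 library or averages rounded to 0.01, and these cannot be told apart. The root also listed more transcripts at 0, 11369 against 7694 in shoot, or 7855 in shoot after rounding to 0.01. The 30DAP seed listed 11402 transcripts at 0, and the other 28 tissues/organs listed 6320 to 9901.

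More transcripts were called higher in shoot than in root. Of the 24572 transcripts, 2361 (9.61%) were higher in shoot and 1565 (6.37%) were higher in root. At a difference of 1 or more the numbers were 5347 (21.8%) in shoot and 4437 (18.1%) in root. A difference of 3 or more was reached by 1094 (4.45%) in shoot and by 687 (2.8%) in root. The median difference over all transcripts was 0.05, and 60.2% of the transcripts had a difference between -1 and 1. Near the threshold, 741 transcripts had differences from 2 to 2.5 toward shoot and 1119 from 1.5 to 2, and toward root the numbers were 541 and 1040. The transcripts higher in shoot had a median of 27.03 FPKM in shoot and 1.76 FPKM in root. Those higher in root had a median of 1.37 FPKM in shoot and 24.85 FPKM in root. The transcripts higher in shoot held 35.8% of the summed FPKM of the shoot and 1.92% of that of the root. The transcripts higher in root held 3.13% of the sum in shoot and 30.9% in root. The call itself fixes the direction of these shares.

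**Figure D1:**
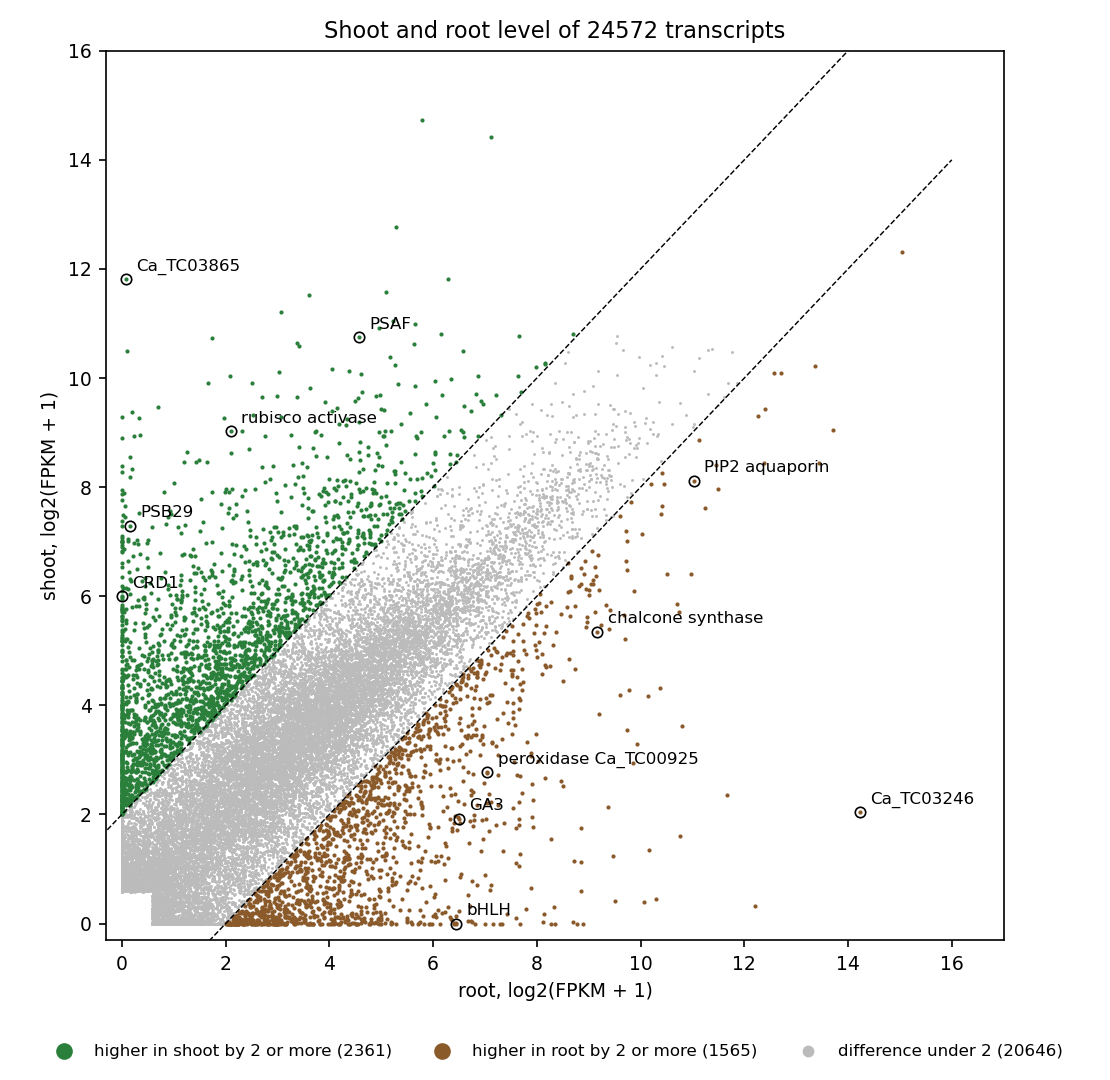
Level of each of 24572 transcripts in shoot (vertical axis) and root (horizontal axis), both as log2(FPKM + 1), with dashed lines at a difference of 2. The 2361 transcripts higher in shoot (green) and 1565 higher in root (brown) lie outside the lines, and circles mark transcripts named in the text.

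Some of these transcripts were listed at 0 in the other organ. At 0.5 FPKM or more in shoot and 0 in root there were 835 transcripts, of which 189 had at least 5 FPKM. The reverse held for 375 transcripts, 81 of them at 5 FPKM or more in root. Among the transcripts called, 269 of those higher in shoot were listed at 0 in root and 120 of those higher in root were listed at 0 in shoot. A polyubiquitin transcript was among those listed at 0 in shoot and a ribosomal protein transcript among those listed at 0 in root. Other transcripts of these families were measured in both organs. Since the number of fragments behind a value is not known, a listed 0 was not read as absence. The larger number of zeros in the root file moves with these counts, and its part in them was not tested.

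Descriptions were at hand for 1736 of the 24572 transcripts (7.06%), with 159 of those higher in shoot and 92 of those higher in root. They name the best match in Arabidopsis thaliana, and the roles given here are those known in that species. Among the compared transcripts, 533 are listed as not aligned to the chickpea genome, and reads of near-identical copies may be shared between them. The list was held only in part, with 1998 transcripts, so 533 is a lower bound. A transcript without this mark may therefore be unaligned too. Such transcripts are called unaligned here. Calls in the lists below stand beside 9.61% higher in shoot and 6.37% higher in root over all compared transcripts. A single call in a list was not read as a result about the list.

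The components of photosynthesis were higher in shoot or did not reach the threshold, and no member was higher in root. In the list of nuclear-encoded photosystem and electron transport proteins, 4 of 7 measured members were higher in shoot, with a median difference of 3.16. PSAF (Ca_TC00866), the photosystem I subunit that docks plastocyanin, had 1727 FPKM in shoot, against 22.7 FPKM in root. It had 1989 to 2047 FPKM in the 3 leaf tissues, against 2.71 FPKM in root tip and 0.28 FPKM in root hair. PSB29 (Ca_TC01760), a thylakoid protein needed to build photosystem II, had 156 FPKM in shoot and 0.11 FPKM in root, a difference of 7.14. A component of the NDH complex of cyclic electron flow (Ca_TC01260) had 99.1 FPKM in shoot and 0.09 FPKM in root. The chloroplast proton-driven ATP synthase was represented by a gamma subunit transcript (Ca_TC00720) with 217 FPKM in shoot, which was listed at 0 in root and had 0.10 and 0.23 FPKM in root tip and root hair. Its difference of 7.77 was the largest among the transcripts with a description.

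Light-harvesting antenna proteins hold most of the chlorophyll of a leaf. Of 17 measured antenna transcripts, 6 were higher in shoot and none in root, and 16 had a positive difference, with a median of 1.08. LHCB6 (Ca_TC00156), an antenna protein of photosystem II, had 283 FPKM in shoot and 15.0 FPKM in root. LHCB1 (Ca_TC35540, unaligned) had 24.3 FPKM in shoot and was listed at 0 in root. LHCA3 (Ca_TC34360, unaligned), of photosystem I, had about the same level in both, 18.2 FPKM in shoot and 18.4 FPKM in root. All but 2 of the 17 are listed as unaligned. With the copies of each Arabidopsis match summed, 2 matches were higher in shoot and none in root. The sum over the list was 386 FPKM in shoot and 41.5 FPKM in root.

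Carbon fixation showed large differences in few transcripts. In this list, 2 of 10 members were higher in shoot and none in root, with a median difference of 0.95. Rubisco activase (Ca_TC32665, unaligned), which frees the rubisco active site, had 519 FPKM in shoot, against 3.28 FPKM in root. A small subunit of rubisco (Ca_TC33538, unaligned) had 175 FPKM in shoot and 0.86 FPKM in root. Both were highest in bracteole, at 1265 and 1056 FPKM, and at most 0.18 FPKM in root tip and root hair. A plastid fructose-bisphosphate aldolase (Ca_TC33942, unaligned) lay the other way, with 1.22 FPKM in shoot and 4.63 FPKM in root, which did not reach the threshold. Sedoheptulose-bisphosphatase (Ca_TC32282, unaligned), a Calvin cycle enzyme, had 1.46 FPKM in shoot and was listed at 0 in root.

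Photorespiration recycles the product of the oxygenase reaction of rubisco and re-assimilates the ammonium released. Here 6 of 12 measured members were higher in shoot and none in root, with a median difference of 1.93. Plastid glutamine synthetase GS2 (Ca_TC00667) had 826 FPKM in shoot and 71.2 FPKM in root. Root tip was close to the whole root at 75.8 FPKM, but root hair had 0.15 FPKM. Ferredoxin-dependent glutamate synthase GLU1 (Ca_TC34452, unaligned), the next enzyme, had 72.7 FPKM in shoot and 5.80 FPKM in root. A T-protein of glycine cleavage (Ca_TC34353, unaligned) was higher in shoot, 25.3 FPKM against 2.53 FPKM in root. Its level was 9.65 FPKM in mature leaf, but 2.74 FPKM in young leaf and 0.15 FPKM in bracteole. Catalase 2 (Ca_TC33526, unaligned), which removes the peroxide of the pathway, had 11.9 FPKM in shoot and 20.0 FPKM in root, short of the threshold.

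Pigment metabolism and the plastid genome also had calls toward shoot. Of 7 transcripts for chlorophyll and carotenoid metabolism, 3 were higher in shoot and none in root, with a median difference of 1.10. CRD1 (Ca_TC34322, unaligned), the cyclase that closes the isocyclic ring of chlorophyll, had 63.3 FPKM in shoot and was listed at 0 in root, root tip and root hair. ALBINA 1 (Ca_TC32642, unaligned), a subunit of magnesium chelatase, had 22.6 FPKM in shoot and 2.05 FPKM in root. The remaining call was pheophytinase (Ca_TC34347, unaligned), with 3.15 FPKM in shoot and a listed 0 in root. Zeta-carotene desaturase (Ca_TC34997, unaligned) lay toward root, with 1.75 FPKM in shoot and 5.89 FPKM in root, short of the threshold. Of 27 measured transcripts matching plastid-encoded genes, 5 were higher in shoot and none in root, with a median difference of 0.84. The large subunit of rubisco (Ca_TC37542) had 19.0 FPKM in shoot and was listed at 0 in root.

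**Figure D2:**
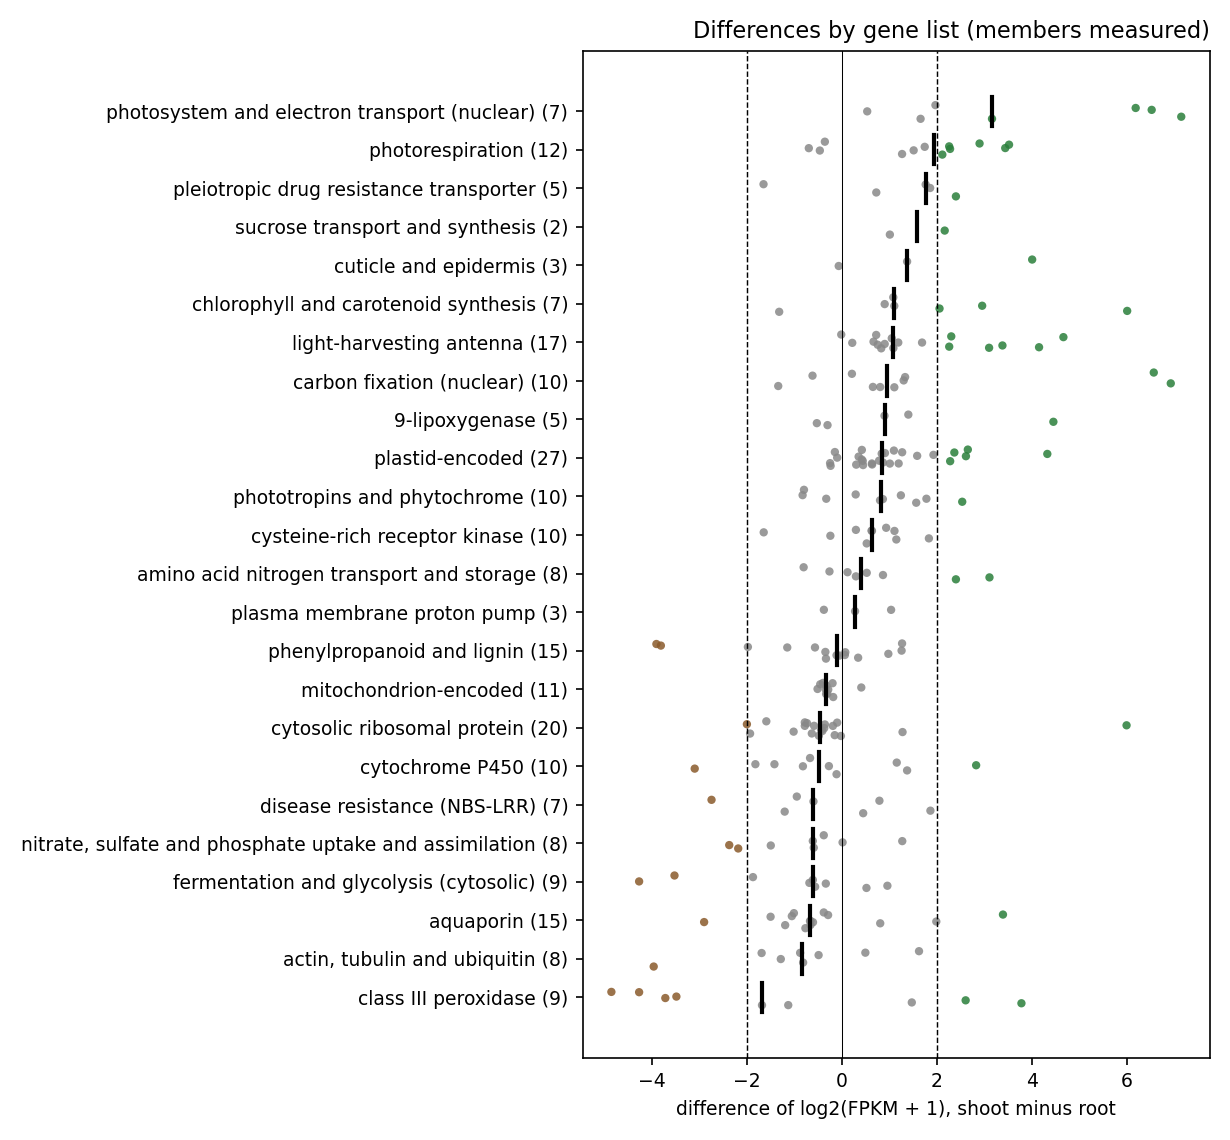
Difference of log2(FPKM + 1), shoot minus root, of each measured transcript (points) in 24 gene lists, with the number measured in brackets, the list median as a black bar and dashed lines at the threshold of 2. Photosystem members reach a difference of 7.14, and the peroxidases spread from -4.86 to 3.78.

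Other lists of shoot functions were short. Protodermal factor 1 (Ca_TC33666, unaligned), a cell wall protein of the epidermal layer of shoot meristems, had 15.1 FPKM in shoot and was listed at 0 in root. It was highest in the shoot apical meristem, at 259 FPKM. Of 10 transcripts for phototropins, phytochromes and NPH3-family proteins, which sense blue or red light or act after such sensing, 1 was higher in shoot and none in root, which is near the 9.61% and 6.37% of all transcripts. This was an NPH3-family transcript (Ca_TC00847), with 7.96 FPKM in shoot and 0.55 FPKM in root. Phototropin 2 (Ca_TC35812, unaligned) had 5.72 FPKM in shoot and 0.96 FPKM in root, a difference of 1.78. Sucrose phosphate synthase 3F (Ca_TC33455, unaligned), an enzyme of sucrose synthesis, had 3.48 FPKM in shoot and was listed at 0 in root.

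Among lists of root functions, the class III peroxidases had the most calls toward root. Of 9 measured peroxidases, 2 were higher in shoot and 4 in root, and the median difference was -1.69. The 4 higher in root and another, Ca_TC00922, have identifiers from Ca_TC00922 to Ca_TC00929. Ca_TC00929 had 0.06 FPKM in shoot and 29.7 FPKM in root, and at most 0.02 FPKM in the 3 leaf tissues. Ca_TC00925 had 5.83 FPKM in shoot and 131 FPKM in root. Ca_TC00923 had 14.3 FPKM in shoot, 201 FPKM in root and 362 FPKM in root hair. Ca_TC00926 had 0.22 FPKM in shoot and 12.7 FPKM in root. Ca_TC00922 was abundant in both organs, with 449.7 FPKM in shoot and 987 FPKM in root, short of the threshold. Another pair of peroxidases had the opposite pattern. Ca_TC00157 had 570.4 FPKM in shoot, its highest tissue, and 40.6 FPKM in root, and Ca_TC01999 had 283 FPKM in shoot and 45.8 FPKM in root. The summed FPKM of the list was therefore close in both organs, 1328 in shoot and 1453 in root, while its members differed widely.

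Aquaporins let water and small solutes through membranes. Of 15 measured, 1 was higher in shoot and 1 in root, near the shares of all transcripts, with a median difference of -0.66. The plasma membrane aquaporin of the PIP2 group (Ca_TC01579) dominated the list, with 277 FPKM in shoot and 2082 FPKM in root. It had 174 to 324 FPKM in the leaf tissues, against 514 FPKM in root tip and 1248 FPKM in root hair. A pair of NIP1;2 transcripts with neighbouring identifiers went opposite ways. Ca_TC00514 had 16.4 FPKM in shoot and 0.66 FPKM in root, whereas Ca_TC00515 had 6.60 FPKM in shoot and 16.4 FPKM in root. The difference of Ca_TC00515 was -1.20, short of the threshold.

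For the uptake and assimilation of nitrate, sulfate and phosphate, 2 of 8 measured members were higher in root and none in shoot. Sulfate transporter SULTR1;3 (Ca_TC00152), known for sulfate transport in phloem, had 0.80 FPKM in shoot and 8.32 FPKM in root, and was highest in root hair at 54.4 FPKM. ATP sulfurylase 1 (Ca_TC35202, unaligned), which activates sulfate, was listed at 0 in shoot and had 3.55 FPKM in root, but 11.7 FPKM in the shoot apical meristem. Root-type ferredoxin reductase (Ca_TC00938), which supplies electrons to nitrite reduction in non-green plastids, had 48.65 FPKM in shoot and 139 FPKM in root, short of the threshold. Another match to it (Ca_TC33130, unaligned) lay the other way, with 1.41 FPKM in shoot and a listed 0 in root. In the list of amino acid nitrogen transport and storage, 2 of 8 were higher in shoot and none in root, both matching the amino acid permease AAP3. Ca_TC12788 had 76.5 FPKM in shoot and 13.7 FPKM in root, and Ca_TC12789 had 7.61 FPKM in shoot and was listed at 0 in root.

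The phenylpropanoid pathway leads from phenylalanine to lignin and flavonoids. Of 15 measured transcripts, 2 were higher in root and none in shoot, and the median difference was -0.12. Phenylalanine ammonia lyase 1 (Ca_TC35756, unaligned), the entry enzyme, had 0.14 FPKM in shoot and 16.1 FPKM in root. Chalcone synthase (Ca_TC31878, unaligned), which opens the flavonoid branch, had 39.8 FPKM in shoot and 573 FPKM in root. Chalcone synthase was higher still in root hair, at 1263 FPKM, and in germinating seedling, at 1209 FPKM. Cinnamoyl-CoA reductase 1 (Ca_TC01100), of the lignin branch, had 34.2 FPKM in shoot and 77.3 FPKM in root, short of the threshold. Among 10 measured cytochrome P450 transcripts, 1 was higher in shoot and 1 in root, near the shares of all transcripts. The one higher in shoot (Ca_TC35514, unaligned) had 14.02 FPKM in shoot and 1.12 FPKM in root, and CYP76C4 (Ca_TC33158, unaligned) had 4.40 FPKM in shoot and 45.4 FPKM in root.

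Further lists of root functions did not lie toward root. Of 5 pleiotropic drug resistance transporters, 1 was higher in shoot and none in root, with a median difference of 1.76, and of 5 lipoxygenases 1 was higher in shoot and none in root, with a median of 0.90. The 3 plasma membrane proton pumps had no call and a median of 0.28. PDR12 (Ca_TC01199), a transporter of the pleiotropic drug resistance group, had 1052 FPKM in shoot and 199 FPKM in root. Its level was 595 FPKM in mature leaf but 125 FPKM in young leaf and 177 FPKM in bracteole, which overlaps root tip at 115 FPKM and root hair at 194 FPKM. Another PDR12 match (Ca_TC21451) lay the other way, with 0.31 FPKM in shoot and 3.13 FPKM in root, short of the threshold. Lipoxygenase 1 (Ca_TC33398, unaligned), which oxidizes polyunsaturated fatty acids, had 34.5 FPKM in shoot and 0.62 FPKM in root, and 192 FPKM in germinating seedling. Another match to it (Ca_TC35950, unaligned) had 0.51 FPKM in shoot and 1.18 FPKM in root, short of the threshold. In the defence lists, neither direction had a call among 10 measured cysteine-rich receptor kinases. Of 7 disease resistance transcripts of the NBS-LRR class, a family of intracellular immune receptors, 1 was higher in root. This transcript (Ca_TC31847, unaligned) had 0.02 FPKM in shoot and 5.83 FPKM in root, but 7.36 FPKM in the shoot apical meristem.

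Both calls among 9 measured transcripts of fermentation and glycolysis were toward root and matched pyruvate decarboxylase, the first enzyme of ethanol fermentation. Ca_TC31848 (unaligned) had 5.79 FPKM in shoot and 130.2 FPKM in root. It stood apart from the root parts, at 0.34 FPKM in root tip and 0.13 FPKM in root hair, and was at 796 FPKM in bracteole. Ca_TC00449 had 1.06 FPKM in shoot and 22.8 FPKM in root.

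Lists of functions common to all cells were measured too. Of 20 measured cytosolic ribosomal proteins, 18 had a negative difference, with a median of -0.46. Of the 20, 1 was higher in shoot and 1 in root, no more than the shares of all transcripts. The exception in shoot (Ca_TC35583, unaligned), matching ribosomal protein 1, had 62.7 FPKM in shoot and was listed at 0 in root. The one in root, of the L18ae family (Ca_TC02862), had 13.5 FPKM in shoot and 57.0 FPKM in root. Of 8 actin, tubulin and ubiquitin transcripts, none was higher in shoot and 1 in root, with a median difference of -0.85. Actin-11 (Ca_TC00132) had 281 FPKM in shoot and 909 FPKM in root, a difference of -1.69. A polyubiquitin 10 transcript (Ca_TC37701) was listed at 0 in shoot and had 14.6 FPKM in root. The 11 transcripts matching mitochondrial genes had no call in either direction and a median difference of -0.33 (ATP synthase subunit 1, Ca_TC31889, had 0.89 FPKM in shoot and 1.38 FPKM in root).

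Outside the lists, the transcripts with the largest differences and a description were mixed in function. Toward shoot, a match to CAPRICE-like MYB3 (Ca_TC00717), a small MYB protein of epidermal patterning, had 92.0 FPKM in shoot and was listed at 0 in root. WRKY40 (Ca_TC01092), a transcription factor of pathogen and abscisic acid responses, had 153 FPKM in shoot and 1.11 FPKM in root, with 224 to 290.2 FPKM in the leaf tissues. A second WRKY40 match (Ca_TC01093) had 82.9 FPKM in shoot and 13.55 FPKM in root. A ubiquitin-conjugating enzyme-like transcript (Ca_TC35469, unaligned) had 128 FPKM in shoot and was listed at 0 in root.

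Toward root, the largest difference with a description was that of Ca_TC00681, with 0.06 FPKM in shoot and 79.8 FPKM in root. Ca_TC02258 followed, with 0.15 FPKM in shoot and 74.1 FPKM in root, and neither description gives a function. WRKY65 (Ca_TC00500) had 2.48 FPKM in shoot and 202 FPKM in root, with 54.4 and 111 FPKM in root tip and root hair. A quinone reductase (Ca_TC00269) had 2.51 FPKM in shoot and 147 FPKM in root. GA3 (Ca_TC01080), the ent-kaurene oxidase of gibberellin synthesis, had 2.79 FPKM in shoot and 88.9 FPKM in root. A transcript of the MtN3 family (Ca_TC12845), which holds the SWEET sugar transporters, had 5.64 FPKM in shoot and 194.7 FPKM in root. An HSP70-family transcript (Ca_TC32071, unaligned) was listed at 0 in shoot and in all 3 leaf tissues and had 51.1 FPKM in root. It was highest in the shoot apical meristem, at 103 FPKM, and had 66.6 FPKM in germinating seedling. Chaperonin-60 alpha (Ca_TC33622, unaligned), known to fold rubisco in plastids, was listed at 0 in shoot and had 30.3 FPKM in root.

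The largest differences of all belonged to transcripts without a description. Ca_TC03865 had 3586 FPKM in shoot and 0.05 FPKM in root, and Ca_TC25100 had 1436 FPKM in shoot and 0.07 FPKM in root. Toward root, Ca_TC03246 had 3.10 FPKM in shoot and 19192 FPKM in root, and Ca_TC03245, with the preceding identifier, had 0.24 FPKM in shoot and 4695 FPKM in root. The root parts also held the last pair, with 1002 and 423 FPKM in root tip and 2762 and 37.7 FPKM in root hair, whereas the 3 leaf tissues had at most 1.27 FPKM of either.

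**Figure D3:**
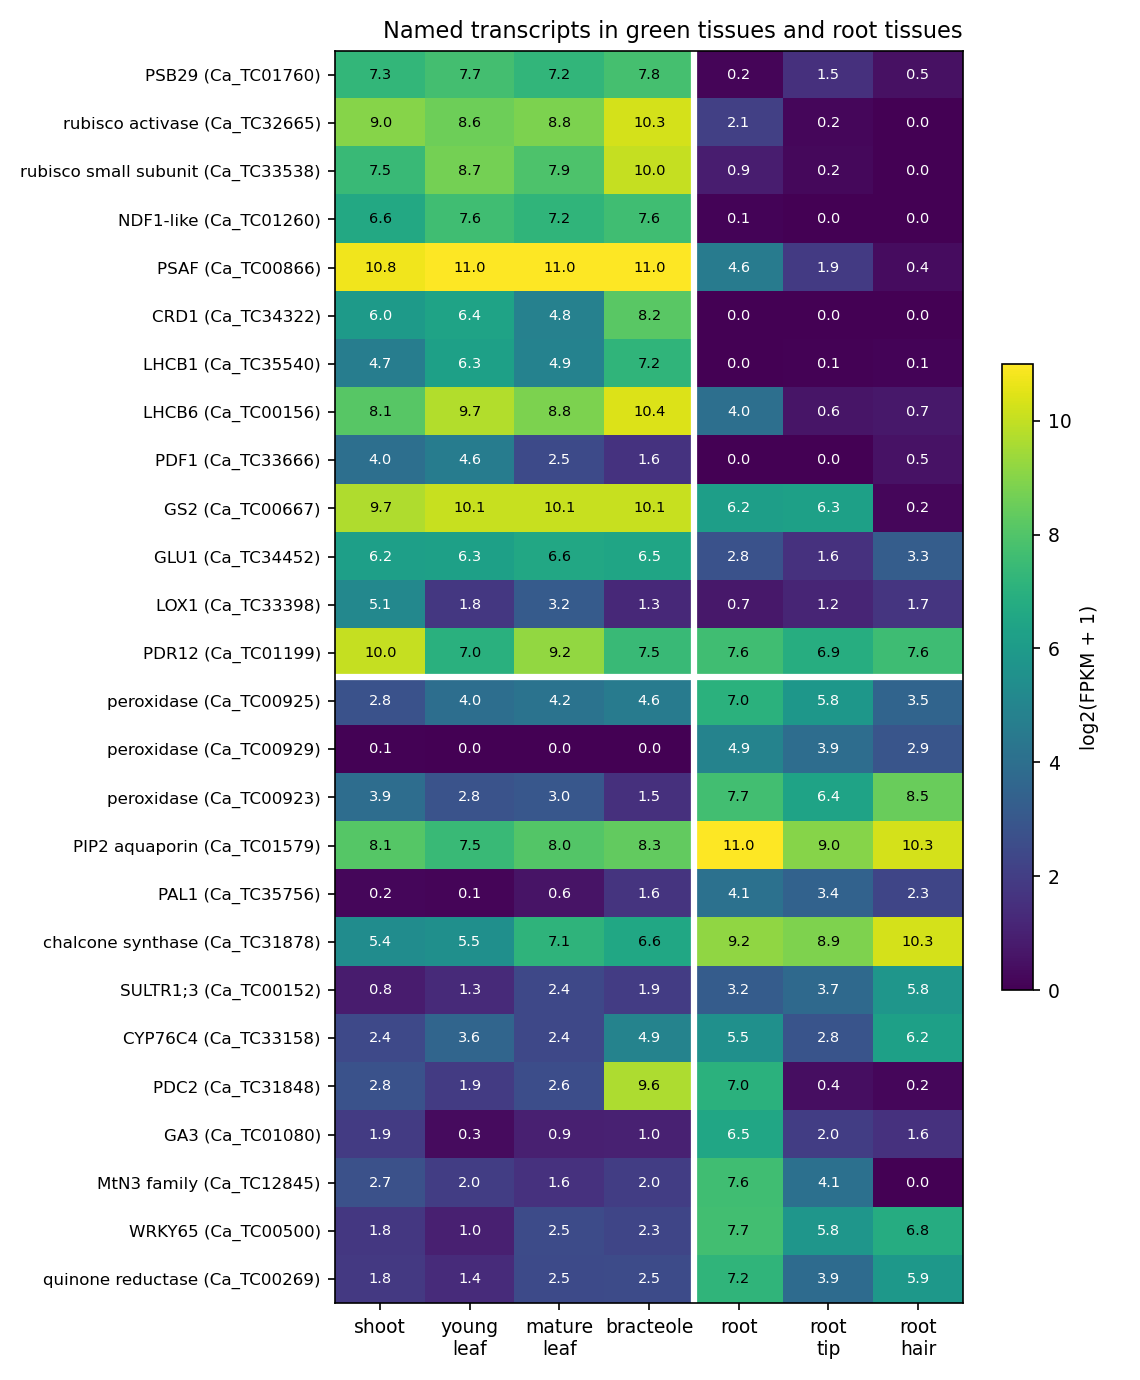
Level as log2(FPKM + 1) of 26 transcripts named in the text (rows) in shoot, young leaf, mature leaf and bracteole, left of the white line, and in root, root tip and root hair, right of it. The upper rows are transcripts higher in shoot and the lower rows those higher in root. GA3, the MtN3-family transcript and PDC2 are high in root but at 4.1 or less in root tip and root hair.

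Of 348 transcripts annotated as transcription factors, 215 were compared, 16 were higher in shoot and 19 in root, against 9.61% and 6.37% of all transcripts. Many were listed by the study for their tissue specificity or module in these same data, so their directions are not independent of it. All 4 measured transcripts of the zinc finger homeodomain family (zf-HD) were higher in shoot, with 4.00 to 11.8 FPKM in shoot and at most 1.23 FPKM in root. Of these, Ca_TC32326, Ca_TC03983 and Ca_TC03985 were listed at 0 in young leaf and had at most 0.11 FPKM in bracteole. In mature leaf these had 3.303, 1.233 and 2.497 FPKM, in this order, against at most 0.28 FPKM in root. Ca_TC06461 had 10.0 FPKM in shoot and 35.4 FPKM in young leaf. An AUX/IAA transcript (Ca_TC09716), a family of auxin response repressors, had 129.7 FPKM in shoot and 6.37 FPKM in root. JAZ8 (Ca_TC00569), a repressor of jasmonate signalling, had 7.81 FPKM in shoot and 0.05 FPKM in root. In the AP2-EREBP family, 4 of 12 were higher in root and none in shoot, among them ERF4 (Ca_TC00405) with 20.9 FPKM in shoot and 93.3 FPKM in root. A bHLH transcript (Ca_TC01989) was listed at 0 in shoot and the leaf tissues and had 86.25 FPKM in root. A MYB transcript (Ca_TC08683) had 0.02 FPKM in shoot and 24.85 FPKM in root, and a homeobox transcript (Ca_TC05640) had 0.08 FPKM in shoot and 30.8 FPKM in root. Of the 7 GRAS transcripts compared, 3 were higher in root, but 1 of these is the transcript described as ATP sulfurylase 1, so its family is uncertain.

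Protein-coding genes (PCGs) and long noncoding RNAs (lncRNAs) were compared in the part of the position table held here. Of 1348 compared PCGs, 9.27% were higher in shoot and 5.42% in root, close to all transcripts. Of 79 compared lncRNAs, 9 (11.4%) were higher in shoot and 12 (15.2%) in root, with a median difference of -0.66. At least 0.5 FPKM in 1 of the organs was reached by 83.1% of the PCGs and 42.5% of the lncRNAs.

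Whether leaf tissues and root parts, which were not used to call the transcripts, showed the same order was examined next. All 3 leaf tissues lay above both root parts for 24.3% of all transcripts, and for 1658 of the 2361 (70.2%) higher in shoot. Both root parts lay above all 3 leaf tissues for 18.1% of all transcripts, and for 684 of the 1565 (43.7%) higher in root. The opposite order was found for 2.33% of the transcripts higher in shoot and 8.88% of those higher in root. The part that the dark growth of the root hair seedlings has in these orders was not tested. The leaf order was found for 16 of 17 antenna, 7 of 7 photosystem, 10 of 10 carbon fixation and 7 of 7 pigment transcripts. It was found for 6 of 12 photorespiration and 10 of 27 plastid-encoded transcripts, with 1 in the root order in each. Of the 12 called members of the antenna, photosystem and carbon fixation lists, all had it. Of the 4 peroxidases higher in root, 2 had the root order.

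**Figure D4:**
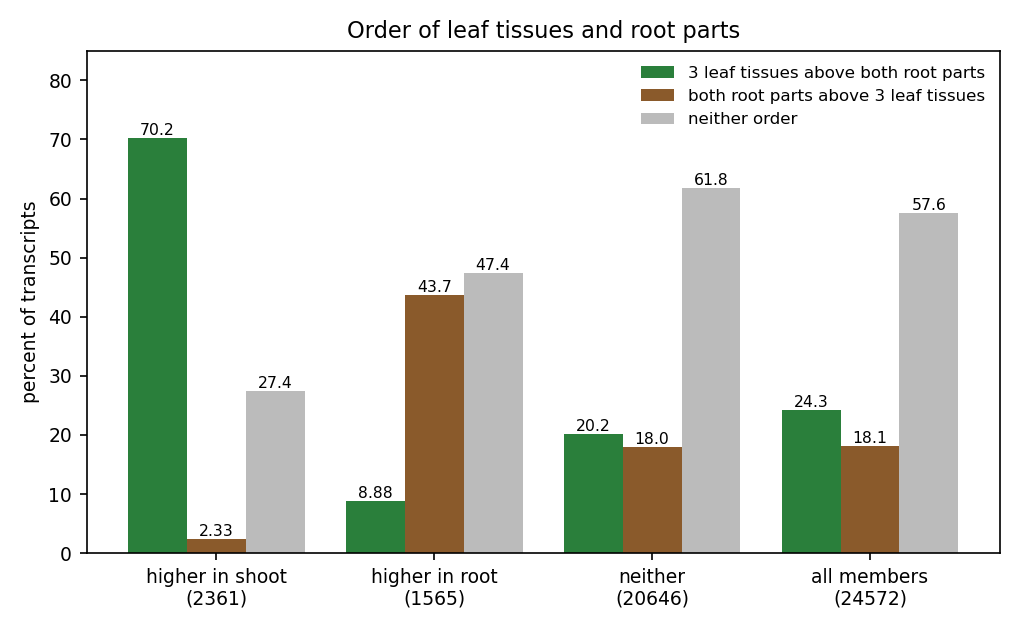
Percent of transcripts (vertical axis) whose values in all 3 leaf tissues were above both root parts (green), whose values in both root parts were above all 3 leaf tissues (brown), or neither (grey), for the transcripts higher in shoot, higher in root, called in neither direction, and all 24572. The leaf order holds 70.2% of the transcripts higher in shoot, and the root order 43.7% of those higher in root.

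Of the other tissues/organs, mature leaf was most like shoot, and germinating seedling most like root. Over the 24572 transcripts, Spearman's rho of shoot was 0.93 with mature leaf, 0.845 with young leaf and 0.68 with root. That of root was 0.78 with germinating seedling, 0.77 with root tip, 0.77 with nodule, 0.73 with pedicel and 0.69 with root hair. The value with root hair was thus little above that with shoot. These correlations are across transcripts, with 1 value per tissue/organ, and are given as a description. Of the transcripts higher in shoot, 59.4% had their highest value of 31 tissues/organs in shoot or 1 of the 3 leaf tissues, with 22.1% in young leaf and 15.1% in shoot itself. Of those higher in root, 64.4% had it in root, root tip or root hair, with 45.9% in root itself, 188 transcripts in root hair and 6.52% in root tip. Over all transcripts the shares were 14.3% for the shoot and leaf tissues and 17.8% for the root tissues.

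The whole root was also set against its tip and hairs. Of the 1565 transcripts higher in root, 554 (35.4%) were higher in root by 2 or more on the log2 scale than in both root tip and root hair. This held for 5.0% of all 24572 transcripts, but those higher in root were chosen for their root values, so nothing is read from the difference between these shares. In shoot, 5 of the 2361 (0.212%) exceeded all 3 leaf tissues by as much, and 0.0203% of all transcripts. The shoot itself includes leaves, and the tissues set beside the organs differ in number and age, so these shares do not measure the same thing. In the root set, 36 transcripts had a description. Besides pyruvate decarboxylase, GA3 and the MtN3-family transcript, it held metacaspase 3 (Ca_TC00171), a cysteine protease, with 8.57 FPKM in shoot and 74.0 FPKM in root, against 0.47 FPKM in root tip and 0.03 FPKM in root hair. Wound-responsive family transcripts were in it 3 times. Ca_TC01754 had 1.00 FPKM in shoot and 18.5 FPKM in root, and Ca_TC01759 had 2.19 FPKM in shoot and 24.05 FPKM in root. The most abundant described member was dormancy-associated protein-like 1 (Ca_TC00398), with 631 FPKM in shoot and 4932 FPKM in root, against 866 FPKM in root tip and 233 FPKM in root hair. Gibberellin 3-oxidase 1 (Ca_TC01202), which makes active gibberellin, had 0.10 FPKM in shoot and 6.54 FPKM in root, against 0.88 FPKM in root tip. The leaf tissues lay above root tip, with 4.27 FPKM in young leaf, 2.08 FPKM in mature leaf and 1.40 FPKM in bracteole. Germinating seedling had 10.1 FPKM of this transcript, more than root. The root file, which differs in its decimals and zeros, is the same for all these values, and its part in the set was not tested.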

How the data were processed

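Expression was measured by paired-end RNA-seq, and 1 file per tissue/organ was used for shoot, root and 29 others. The authors used NGS QC Toolkit for filtering, bowtie2 for mapping to their own assembly and RSEM for quantification, and deposited FPKM values, stated to be averages of the replicates. One value per organ carries no spread, and FPKM divides by transcript length and mapped fragments. The 20DAP seed values sum far above the others and were not used. The sources differ on the age of root tip and root hair.

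From the deposited FPKM, log2(FPKM + 1) differences, shoot minus root, were computed in Python 3.11.15 with pandas 2.3.3 and numpy 2.4.6 (figures with matplotlib 3.10.9). A minimum of 0.5 FPKM in either organ and a call at 2 were used, with no test. The calculation was tested on simulated data, with changes beyond the threshold in transcripts of higher level only. Changes at low values or near the threshold were not simulated. Descriptions, types and transcription factor families came from the parts held here of the study's annotation tables, and the coverage was 7.06% of compared transcripts. RefSeq names share no identifier with the transcripts, so no sequence or coordinate is printed.

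The transcripts, lists and rules were chosen with earlier results of these data known. A rule picked, per list, up to 4 members with the largest difference in the prevailing direction, 1 per Arabidopsis match, and 1 in the other. It also picked the 12 largest described differences each way, 2 undescribed each way, and 4 transcription factors each way. Of the 128 transcripts picked, not all are described here. Ca_TC00922, Ca_TC00926, Ca_TC01999, Ca_TC12788, Ca_TC00449, Ca_TC01093, Ca_TC00569, Ca_TC00405, Ca_TC32326, Ca_TC03983, Ca_TC03985, Ca_TC06461 and the described transcripts of the last set were chosen after their values were seen. Alternatives were the pseudocount, the minimum, the threshold, 3 scalings and summed copies. Leaving out unaligned transcripts and requiring the minimum in both organs were chosen later, with the values known.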

Additional observations from a re-analysis of the deposited data

How the results depend on the processing

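No paired analysis was possible because 1 value per organ was deposited, and for the same reason no replicate could be left out. The 2361 transcripts higher in shoot became 4046 with a pseudocount of 0.1, 5347 with a threshold of 1 and 1094 with a threshold of 3. The 1565 higher in root became 2877, 4437 and 687 under these settings, and 1028 with the minimum required in both organs, where fewer transcripts remain. Minimums of 1 FPKM or none left both counts as they were, since a difference of 2 needs at least 3 FPKM in 1 organ. Median-ratio scaling gave 2347 in shoot and 1597 in root, quantile normalization 2176 and 1760, a common sum without organelle-encoded transcripts 2610 and 1449, and leaving out unaligned transcripts 2302 and 1534. Quantile normalization moved the median difference to -0.095, and the common sum moved it to 0.175. The share of calls that were toward shoot was 60.1%, and 54.7% to 64.3% under the alternatives. A change of pseudocount or minimum cannot reverse a difference, and median-ratio scaling changed values by a factor of only 1.012. Of the called transcripts named by the rule, 67 in all, none changed direction under quantile normalization or the common sum. Each of these settings put 1 under the threshold. With a pseudocount of 0.1, 26 of the 128 transcripts named by the rule were newly called. Of the 128, 72 moved by more than 1.5-fold. The common sum held 63 of the 67, leaving out unaligned transcripts 41 and the minimum in both organs 32, so the rest were not examined there. Without unaligned transcripts, no call remained in the carbon fixation, pigment, cuticle, sucrose, phenylpropanoid, cytochrome P450, lipoxygenase and NBS-LRR lists or for the ribosomal protein toward shoot. There was 1 each in the antenna, plastid-encoded, nutrient uptake and fermentation lists, and 2 in photorespiration. Unaligned transcripts outside the part of the list held here could not be left out. With copies summed, 2 peroxidase matches remained higher in root. Without replicate values the precision of any difference is unknown, and at low FPKM the pseudocount sets its size.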

Other observations

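Cell compartments and responses were read from gene ontology terms of the 935 compared transcripts in the functional table held here, of which 80 were higher in shoot and 44 in root. The terms were chosen after the values had been seen. Of 26 transcripts with a thylakoid term, the membranes that carry the photosystems, 15 were higher in shoot and none in root, and all 26 had a positive difference, with a median of 2.42. Of 19 transcripts of the chloroplast envelope, 9 were higher in shoot, and of 32 of the stroma, 8 were, with none higher in root in either. For the cytosol the numbers were 4 in shoot and 4 in root of 102, with a median of -0.36. Of 14 transcripts of the extracellular region, 2 were higher in shoot and 4 in root, and of 11 with heme binding, peroxidases among them, 1 was higher in shoot and 5 in root. Terms for responses to salicylic acid and to wounding had 4 of 11 and 4 of 10 transcripts higher in shoot and none in root, WRKY40 among those for wounding. For the response to jasmonic acid, 2 of 11 were higher in shoot and 1 in root.

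Identifiers next to each other were often called in the same direction. A neighbouring identifier was also higher in shoot for 748 of the 2361 transcripts (31.7%) higher in shoot, against 11.7% of the other transcripts. For root the share was 338 of 1565 (21.6%), against 8.26% of the others. Copies, isoforms and tandem genes were not separated in this count.

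The levels of transcripts that mark other tissues were also read in both organs. Markers were chosen from these data at 5 FPKM or more in the marked tissue. Each was also at least 20 times its highest value in any other tissue but shoot and root. The leaf tissues and root parts were among these tissues, so low values in shoot and root were largely set by the choice. Of 405 transcripts chosen from these data for nodule, 3 reached 0.5 FPKM in shoot, with a highest value of 1.58 FPKM, and 13 in root, with a highest value of 83.9 FPKM. Their sum was 7.86 FPKM in shoot and 108 FPKM in root, against 371537 FPKM in nodule. The 10 markers of androecium and the 1 of embryo were listed at 0 in shoot and in root.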
